A study of Homo sapiens with 12 samples.

Results

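10 platelet and megakaryocyte genes were followed in SET-2 cells, a human megakaryoblastic leukaemia line. The set holds 10 of the 63677 genes listed in the count tables, chosen by name as ITGA2B, ITGB3, GP5, GP6, GP9, THBS1, SELP, TUBB1, RAB27B and CLEC1B and found through their Ensembl identifiers. RNA was measured by 3′ end sequencing in 12 libraries, 3 in each of 4 groups. WT cells carry unaltered LSD1 and insR cells carry LSD1 with an arginine inserted between Leu659 and Asn660, a change that the labels describe as giving drug resistance. Each genotype was given 0.1% DMSO alone (WT DMSO and insR DMSO) or 250 nM GSK-LSD1, an inhibitor of the histone demethylase LSD1 (WT GSK-LSD1 and insR GSK-LSD1). All groups were collected at 48 h. The labels call the cell type acute myeloid leukemia, and do not say whether the insR cells are 1 clone or whether replicates were separate cultures. The p-values therefore cover the spread between these 3 libraries per group alone, and that spread may be technical.

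Megakaryocytes are the bone marrow cells that shed platelets. On the platelet surface, the integrin made of the ITGA2B and ITGB3 chains binds fibrinogen, the GPIb-IX-V complex (with GP9 and GP5) binds von Willebrand factor, GP6 binds collagen and CLEC1B binds podoplanin. Granules made in the megakaryocyte store THBS1 and carry SELP in their membranes, RAB27B directs granules to release, and TUBB1 is the beta-tubulin of the ring of microtubules that gives the platelet its shape. GATA, ETS and RUNX factors bind the promoters of many such genes, and the repressor GFI1B recruits LSD1.

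Promoters of 5 of these genes are printed because these genes changed in opposite directions in WT cells: GP6, GP9 and TUBB1 fell, and ITGA2B and RAB27B rose. Sequences are RefSeq's on GRCh38.p14, each running from 250 bases before to 50 bases after an annotated start, 5′ to 3′ on the gene's strand. They lie at chr19:55038215-55038514 on the minus strand for GP6, chr3:129060529-129060828 on the plus strand for GP9, chr20:59019179-59019478 on the plus strand for TUBB1, chr17:44389600-44389899 on the minus strand for ITGA2B and chr18:54717607-54717906 on the plus strand for the first of the 2 listed starts of RAB27B. Capitals mark GATAA, the core of the GATA motif, and GGAAG, a core of the ETS motif, found on either strand, so that a site on the other strand shows its reverse complement.
GP6: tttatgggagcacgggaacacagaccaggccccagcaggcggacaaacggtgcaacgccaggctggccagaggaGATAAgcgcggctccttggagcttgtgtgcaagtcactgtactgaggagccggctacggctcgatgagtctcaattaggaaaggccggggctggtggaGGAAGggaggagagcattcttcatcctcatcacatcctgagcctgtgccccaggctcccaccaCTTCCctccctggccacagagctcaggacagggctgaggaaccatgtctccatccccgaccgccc
GP9: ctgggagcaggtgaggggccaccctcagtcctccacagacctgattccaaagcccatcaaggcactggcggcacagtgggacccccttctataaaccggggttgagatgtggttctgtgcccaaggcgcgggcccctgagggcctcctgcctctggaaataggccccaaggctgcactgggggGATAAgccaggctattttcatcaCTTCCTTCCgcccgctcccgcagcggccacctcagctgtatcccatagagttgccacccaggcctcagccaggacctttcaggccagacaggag
TUBB1: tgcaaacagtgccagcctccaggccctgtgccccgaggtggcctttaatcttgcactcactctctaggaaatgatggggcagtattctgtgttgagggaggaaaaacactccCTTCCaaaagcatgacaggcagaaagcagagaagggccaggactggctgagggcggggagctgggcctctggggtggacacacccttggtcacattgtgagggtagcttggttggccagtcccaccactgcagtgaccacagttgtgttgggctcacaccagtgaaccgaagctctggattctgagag
ITGA2B: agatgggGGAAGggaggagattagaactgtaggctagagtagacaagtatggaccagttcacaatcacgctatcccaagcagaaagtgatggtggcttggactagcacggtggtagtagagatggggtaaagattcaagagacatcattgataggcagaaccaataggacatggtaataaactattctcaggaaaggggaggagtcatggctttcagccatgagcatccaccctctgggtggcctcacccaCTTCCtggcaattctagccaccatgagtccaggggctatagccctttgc
RAB27B: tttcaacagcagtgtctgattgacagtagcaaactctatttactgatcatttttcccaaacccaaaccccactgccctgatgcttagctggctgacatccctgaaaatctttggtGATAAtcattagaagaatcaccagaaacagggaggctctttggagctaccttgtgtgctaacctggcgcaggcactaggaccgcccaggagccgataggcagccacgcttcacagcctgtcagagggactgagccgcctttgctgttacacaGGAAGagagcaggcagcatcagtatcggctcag
The first GATAA of GP6 begins at -176 from the start, that of GP9 at -67 and that of RAB27B at -135, with the start base as 1 and the base before it as -1. The windows of TUBB1 and ITGA2B hold no GATAA on either strand. The members have 10 promoters in the table, 2 of them of RAB27B. GATAA was found in 6 of these 10 and in 22.7% of all 35116 promoters. GGAAG was found in 9 of 10, beside 71.9% of all promoters. The core AATCA of the GFI1 motif was found in 4 of 10 and 34.5%, and the RUNX core TGTGGT in 4 of 10 and 13.1%. The second RAB27B promoter held none of these motifs. These matches describe letters only, and the motifs were searched with no regard to overlap between them.

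Libraries held 4837096 to 10141155 reads in genes. A count of 0 allows up to 3 counts, which was worth 0.296 to 0.62 counts per 1000000 reads (CPM) by library, covering counting error only. Levels are CPM on library sizes scaled by TMM, and are compared between groups, not between genes. The 10 members passed the filter on low counts. Of these, 4 reached the filter's minimum of 1.67 CPM in the 3 libraries it asks for through 1 genotype alone. GP5 did so in WT libraries, with 1 of 3 in each insR group. THBS1, SELP and CLEC1B did so in insR libraries, with 2, 2 and 0 of the WT libraries. The calls of these 4 genes between insR and WT cells are therefore not independent of the filter. THBS1, SELP and CLEC1B also entered the test of the WT response through insR libraries, and GP5 that of the insR response through WT libraries.

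In WT cells, GSK-LSD1 lowered TUBB1, GP6, GP9 and ITGB3 and raised ITGA2B and RAB27B, calls that were kept under all 22 alternative analyses. TUBB1 fell 11.2-fold, GP6 8.18-fold, GP9 2.95-fold and ITGB3 2.44-fold, while RAB27B rose 4.02-fold and ITGA2B 1.61-fold. By edgeR's quasi-likelihood test with Benjamini-Hochberg adjustment over 12864 genes, called at an adjusted p below 0.05, 8 of 10 members were called, 2 higher and 6 lower. The lower calls of THBS1 and CLEC1B were lost under 5 and 4 of 21 alternatives, and both genes entered this test through insR libraries. Of all genes tested, 45.2% were called, 22.7% higher and 22.5% lower. The median log2 fold change was -1.20 over the members and 0.01 over all genes tested. The members were chosen with earlier results of these data known. Their counts and medians beside all genes, here and below, therefore describe the set and are not an independent test. In bulk RNA, fewer cells of a type and less RNA per cell cannot be told apart. In insR cells none of the 10 was called.

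**Figure D1:**
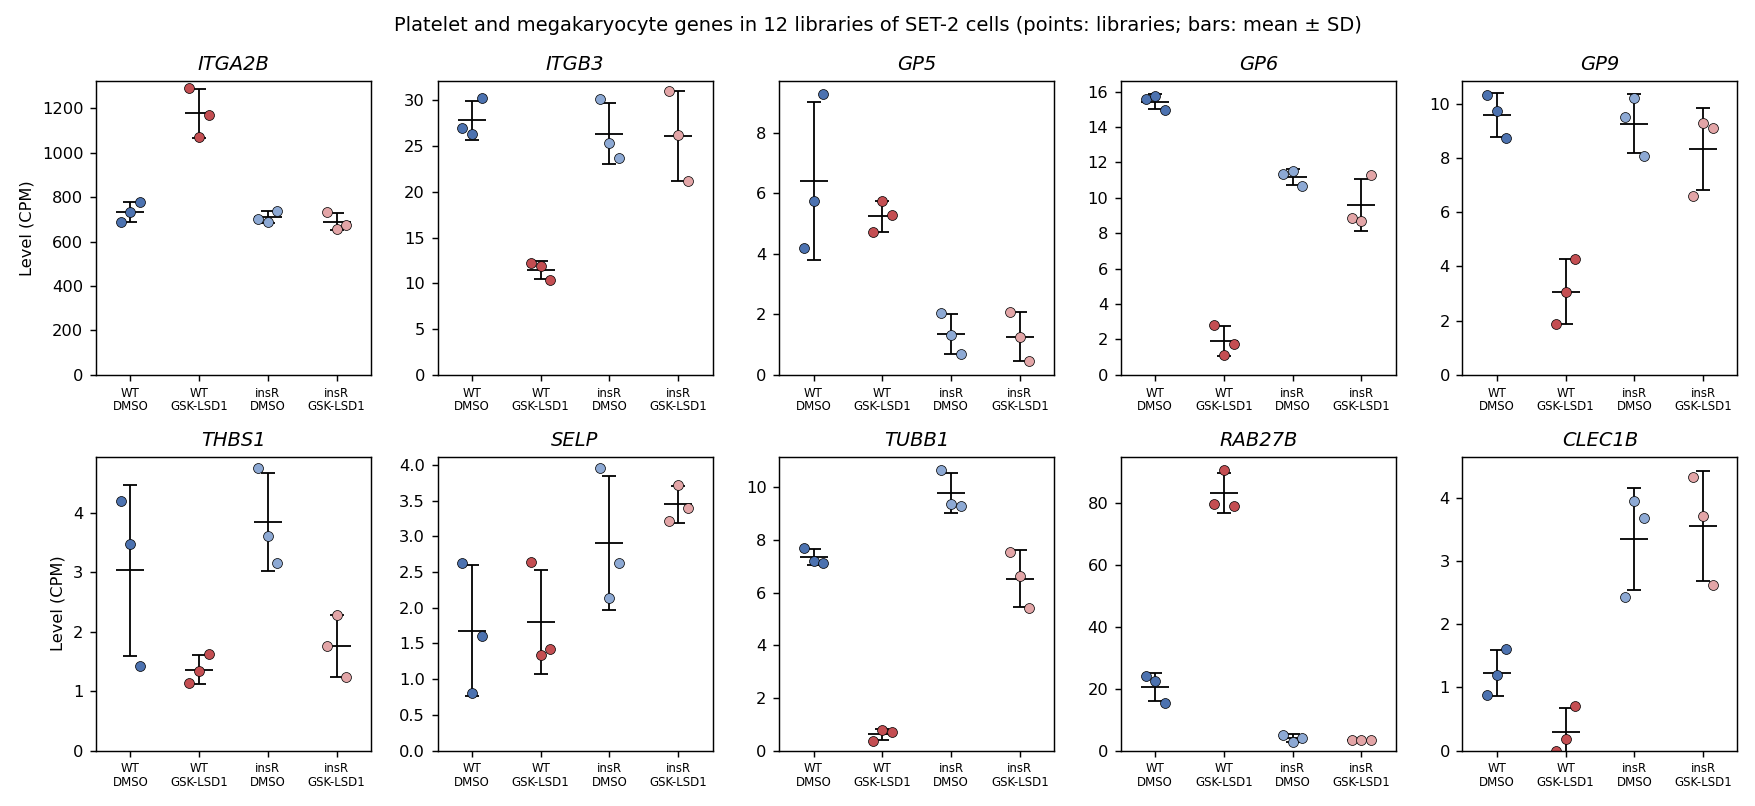
Level of each gene (CPM, linear axis from 0, own scale per gene) in the 4 groups; points are the 3 libraries of a group, the long bar is their mean and the whiskers are the SD. RAB27B and ITGA2B were highest in WT cells given GSK-LSD1, and GP6, GP9, TUBB1 and ITGB3 were lowest there.

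The integrin chains moved in opposite directions. ITGA2B, the alpha chain and an early mark of the megakaryocyte lineage, stood at 687, 735 and 777 CPM in the WT DMSO libraries and at 1291, 1071 and 1170 CPM under GSK-LSD1. In insR cells it stood at 704, 688 and 739 CPM in DMSO and at 732, 659 and 676 CPM under GSK-LSD1. The 3 WT GSK-LSD1 libraries lay above the other 9, and the other 3 groups overlapped in their order. The log2 fold change of ITGA2B was 0.68 ± 0.08 (SE, n = 3 per group) in WT cells, with an adjusted p of 2.22e-07 by edgeR. In insR cells it was -0.04, with a 95% interval of -0.21 to 0.12. Reads for ITGB3, the beta chain, were at 27.0, 26.3 and 30.3 CPM in WT DMSO libraries and at 12.2, 11.9 and 10.4 CPM under GSK-LSD1. Its insR libraries held 30.1, 25.3 and 23.7 CPM in DMSO and 31.0, 26.3 and 21.2 CPM under GSK-LSD1. Here the WT GSK-LSD1 libraries lay below all others. ITGB3 fell by 1.29 ± 0.16 (SE) on the log2 scale in WT cells (adjusted p = 4.51e-07, edgeR), and its value in insR cells was -0.02, with a 95% interval of -0.32 to 0.27.

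The von Willebrand factor receptor was represented by GP9 and GP5. GP9, the subunit needed for the complex to reach the surface, stood at 10.3, 9.75 and 8.73 CPM in WT DMSO libraries and at 1.88, 3.06 and 4.26 CPM under GSK-LSD1. In insR cells its values were 9.53, 10.2 and 8.06 CPM in DMSO and 6.59, 9.31 and 9.12 CPM under GSK-LSD1. The WT GSK-LSD1 libraries were below all others, with no overlap. GP9 fell by 1.56 ± 0.25 (SE) on the log2 scale in WT cells (adjusted p = 2.27e-05, edgeR) and had a value of -0.16 in insR cells (95% interval -0.63 to 0.30). GP5, the subunit cleaved by thrombin, differed by genotype instead. It stood at 4.20, 5.75 and 9.26 CPM in WT DMSO libraries and at 4.71, 5.74 and 5.28 CPM under GSK-LSD1. The insR libraries held 2.03, 1.32 and 0.701 CPM in DMSO and 2.09, 1.24 and 0.463 CPM under GSK-LSD1. All 6 insR libraries lay below all 6 WT libraries. The response of GP5 in WT cells was -0.28 on the log2 scale and was not called (95% interval -0.95 to 0.39, adjusted p = 0.510, edgeR).

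The receptors that signal through SYK were GP6 and CLEC1B. GP6, the collagen receptor, stood at 15.6, 15.8 and 15.0 CPM in WT DMSO libraries, and at 2.83, 1.15 and 1.73 CPM under GSK-LSD1, from 15, 6 and 17 reads. The insR libraries held 11.4, 11.5 and 10.7 CPM in DMSO and 8.84, 8.69 and 11.3 CPM under GSK-LSD1. GP6 was highest in WT DMSO, lower in both overlapping insR groups and lowest in WT GSK-LSD1, with gaps between these 3 levels. GP6 fell by 3.03 ± 0.24 (SE) on the log2 scale in WT cells (adjusted p = 3.85e-10, edgeR). In insR cells the value was -0.21 (95% interval -0.62 to 0.19). CLEC1B, the podoplanin receptor, had few reads: 5, 9 and 9 in WT DMSO libraries and 0, 1 and 7 under GSK-LSD1. It had 24, 24 and 21 reads in insR DMSO libraries and 27, 18 and 17 under GSK-LSD1. In CPM, the WT DMSO libraries stood at 0.876, 1.20 and 1.60 and the WT GSK-LSD1 libraries at 0, 0.191 and 0.71, while insR libraries lay between 2.43 and 4.34. The WT groups did not overlap, and both lay below the insR groups. CLEC1B fell by 1.63 ± 0.64 (SE) on the log2 scale in WT cells (adjusted p = 0.0404, edgeR). Without WT GSK-LSD1 replicate 3 this was -3.44, and the call was lost when WT DMSO 2, WT DMSO 3, WT GSK-LSD1 1 or WT GSK-LSD1 2 was left out (adjusted p up to 0.128 over the alternatives, edgeR).

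Among granule proteins, THBS1 and SELP were both near the limit of counting. THBS1, thrombospondin of the alpha granule, had 24, 26 and 8 reads in WT DMSO libraries and 6, 7 and 16 under GSK-LSD1. These were 4.20, 3.47 and 1.43 CPM and 1.13, 1.34 and 1.62 CPM. The third WT DMSO library lay within the range of the GSK-LSD1 libraries, so the WT groups overlapped. THBS1 fell by 1.11 ± 0.41 (SE) on the log2 scale in WT cells (adjusted p = 0.0287, edgeR). That call was lost with limma-voom and when the first or second library of either WT group was left out (adjusted p up to 0.142, edgeR). In insR cells THBS1 stood at 4.77, 3.62 and 3.16 CPM in DMSO and at 1.77, 2.28 and 1.24 CPM under GSK-LSD1, with no overlap. Its insR value of -1.18 stood beside -1.11 in WT cells and was not called (adjusted p = 0.266, edgeR). SELP, the adhesion molecule that moves to the surface on activation, stood at 2.63, 0.802 and 1.60 CPM in WT DMSO libraries and at 2.64, 1.34 and 1.42 CPM under GSK-LSD1. Its insR libraries held 3.95, 2.14 and 2.63 CPM in DMSO and 3.22, 3.72 and 3.40 CPM under GSK-LSD1. Neighbouring groups of SELP overlapped, and its response in WT cells was 0.11 on the log2 scale, not called (95% interval -0.82 to 1.04, adjusted p = 0.868, edgeR).

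RAB27B and TUBB1 showed large changes with opposite signs. RAB27B, the GTPase of granule secretion, stood at 24.0, 22.4 and 15.3 CPM in WT DMSO libraries and at 79.7, 90.7 and 79.3 CPM under GSK-LSD1. The insR libraries held 5.17, 2.63 and 4.03 CPM in DMSO and 3.54, 3.31 and 3.40 CPM under GSK-LSD1. The order was WT GSK-LSD1, then WT DMSO, then the overlapping insR groups, with gaps between. RAB27B rose by 2.01 ± 0.15 (SE) on the log2 scale in WT cells (adjusted p = 8.19e-11, edgeR) and had a value of -0.26 in insR cells (95% interval -0.82 to 0.30). TUBB1, the platelet beta-tubulin, stood at 7.70, 7.22 and 7.13 CPM in WT DMSO libraries and at 0.377, 0.765 and 0.71 CPM under GSK-LSD1, from 2, 4 and 7 reads. In insR cells it stood at 10.6, 9.38 and 9.29 CPM in DMSO and at 7.56, 6.62 and 5.41 CPM under GSK-LSD1. The insR groups did not overlap each other, and both stood far above the WT GSK-LSD1 libraries. TUBB1 fell by 3.49 ± 0.32 (SE) on the log2 scale in WT cells (adjusted p = 5.05e-09, edgeR). In insR cells the value was -0.59 ± 0.21 (SE), not called (adjusted p = 0.371, edgeR). TUBB1 overlaps ATP5F1E on the opposite strand, which held 61454 reads over the 12 libraries beside 480 for TUBB1. The strand setting of the counting is not given in the sources used here, and the share of these reads that belongs to either gene was not tested. CLEC1B likewise overlaps CLEC12A (200 reads beside 162) and THBS1 overlaps FSIP1 (114 beside 204), both on the opposite strand.

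Libraries of WT DMSO and WT GSK-LSD1 did not overlap for 7 of 10 members, beside 51.9% of all genes tested. In insR cells 2 of 10 did not overlap, THBS1 and TUBB1, both lower under GSK-LSD1, beside 13.7% of all genes. No member was called in insR cells by edgeR or under any of the 22 alternatives, DESeq2 and limma included, and 2 had an unadjusted p under 0.05. Of all genes, 0.505% were called in insR cells (0.241% higher and 0.264% lower) and 996 had an unadjusted p under 0.05.

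The response itself differed between the genotypes for 6 of 10 members, 4 higher and 2 lower in insR than in WT cells, beside 25.1% of all genes (13.3% higher and 11.8% lower). The difference, the log2 response in insR cells minus that in WT cells, was 2.90 ± 0.41 (SE) for TUBB1 with an adjusted p of 1.10e-05 by edgeR. For GP6 it was 2.82 ± 0.32 (SE), with an adjusted p of 5.63e-07 by edgeR. The smaller positive differences were 1.40 for GP9 (adjusted p = 0.00375, edgeR) and 1.26 for ITGB3 (adjusted p = 0.000124, edgeR). Both genes that rose in WT cells had negative differences, -2.27 ± 0.31 (SE) for RAB27B (adjusted p = 7.15e-06, edgeR) and -0.73 ± 0.11 (SE) for ITGA2B (adjusted p = 4.13e-05, edgeR). CLEC1B had a difference of 1.74 that was not called (adjusted p = 0.087, edgeR). It was called under 3 alternatives: without WT GSK-LSD1 replicate 3, at 3.55, with limma-voom and with limma-trend on the normalized signal. For THBS1 the difference was -0.07, with a 95% interval of -1.28 to 1.14, an interval that reaches past 1 on the log2 scale on both sides.

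**Figure D2:**
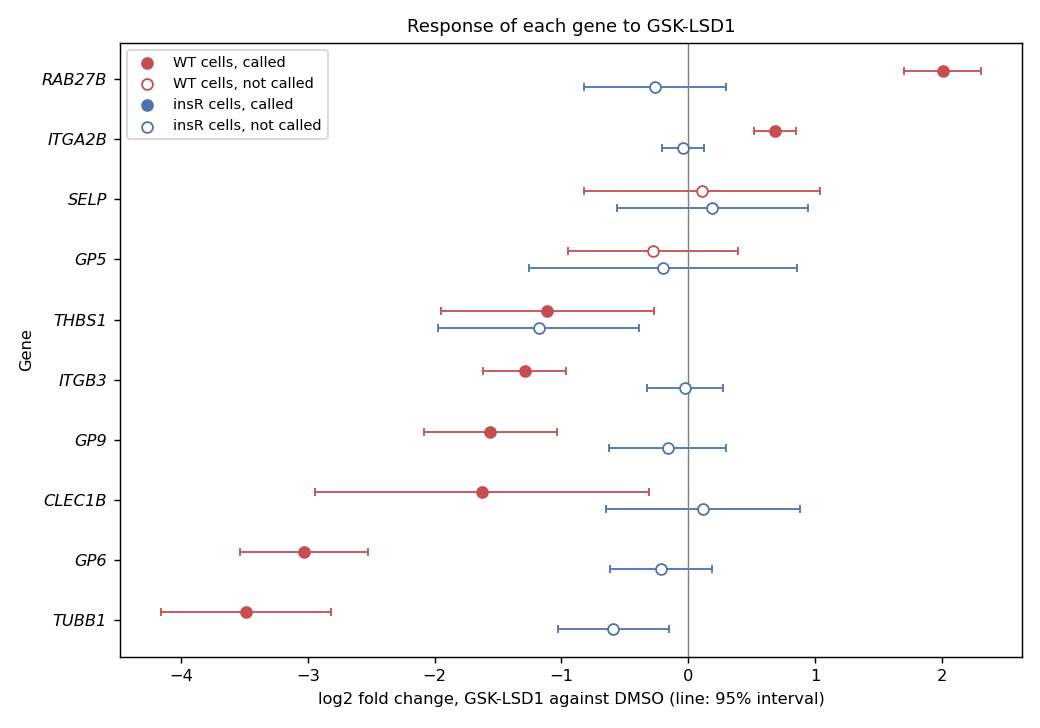
Log2 fold change of each gene under GSK-LSD1 against DMSO in WT cells (red) and insR cells (blue); lines are 95% intervals and filled points are called at an adjusted p below 0.05. In WT cells 8 of the 10 points are filled, from -3.49 for TUBB1 to 2.01 for RAB27B, and in insR cells none is.

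Without drug, insR and WT cells differed in 3 of 10 members, 1 higher and 2 lower in insR cells, beside 30.1% of all genes (14.5% higher and 15.6% lower). RAB27B was 5.02-fold lower in insR cells, with a log2 fold change of -2.33 ± 0.20 (SE) and an adjusted p of 1.56e-09 by edgeR. GP5 was 4.36-fold lower, at -2.13 ± 0.39 (SE), with an adjusted p of 0.000129 by edgeR. CLEC1B was 2.65-fold higher, at 1.40 ± 0.44 (SE), with an adjusted p of 0.016 by edgeR, and this call was lost without WT DMSO replicate 1, WT DMSO replicate 2 or insR DMSO replicate 2 (adjusted p up to 0.0722). Leaving out the 4 genes that passed the filter through 1 genotype, 1 of 6 members was called, RAB27B. In 5 of 10 members the DMSO libraries of the genotypes did not overlap, beside 42.4% of all genes, and GP6 and TUBB1 were among these without a call. GP6 was at -0.46 (adjusted p = 0.0604, edgeR) and was called in the fit with only the groups compared, with limma-voom and without WT GSK-LSD1 replicate 1 or 2. TUBB1 was at 0.42 (adjusted p = 0.136, edgeR). SELP was at 0.88 (adjusted p = 0.108, edgeR) and was called without WT DMSO replicate 1, and THBS1 was at 0.36 and not called. The values of ITGA2B, ITGB3 and GP9 were -0.05, -0.07 and -0.05, with 95% intervals from -0.21 to 0.12, from -0.36 to 0.23 and from -0.50 to 0.40.

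Under GSK-LSD1, insR cells differed from WT cells in 9 of 10 members, 6 higher and 3 lower, beside 54.5% of all genes (27% higher and 27.5% lower). Leaving out the 4 genes that passed the filter through 1 genotype, 6 of 6 were called. RAB27B was 24.2-fold lower in insR cells (adjusted p = 1.50e-15, edgeR) and GP5 4.13-fold lower (adjusted p = 0.000252, edgeR). ITGA2B was 1.71-fold lower (adjusted p = 1.62e-08, edgeR). TUBB1 was 9.97-fold higher (adjusted p = 8.94e-09, edgeR), CLEC1B 8.87-fold (adjusted p = 2.45e-05, edgeR) and GP6 5.11-fold (adjusted p = 3.95e-08, edgeR). Without WT GSK-LSD1 replicate 3 the log2 value of CLEC1B moved from 3.15 to 4.96. GP9 and ITGB3 were 2.55-fold and 2.30-fold higher. SELP was 1.95-fold higher (adjusted p = 0.0454, edgeR), a call lost under 8 of 22 alternatives, among them without WT GSK-LSD1 replicate 2 or 3 or any 1 of the insR GSK-LSD1 libraries (adjusted p up to 0.175). Libraries did not overlap for 9 of 10 members, beside 60.1% of all genes, and THBS1 was the exception in both counts. This comparison and the preceding ones share libraries, so their values stand side by side and are not independent.

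**Figure D3:**
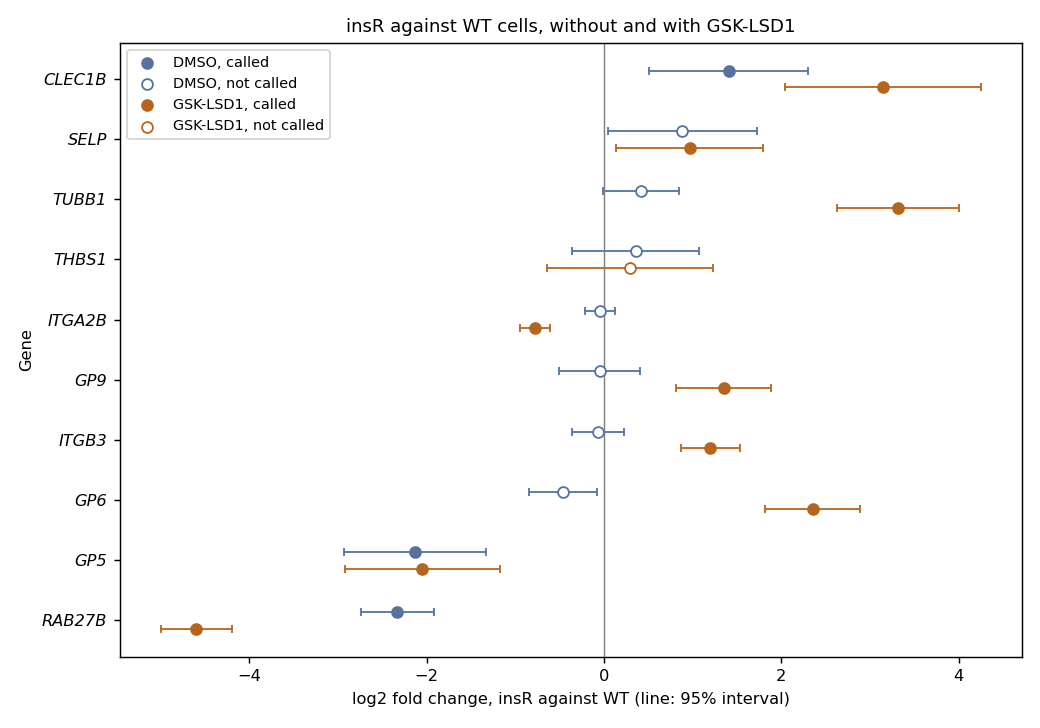
Log2 fold change of each gene in insR against WT cells in DMSO (blue) and under GSK-LSD1 (brown); lines are 95% intervals and filled points are called at an adjusted p below 0.05. RAB27B and GP5 lie below 0 in both conditions and CLEC1B above 0, while GP6, GP9, TUBB1, ITGB3, ITGA2B and SELP are filled under GSK-LSD1 alone.

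Several defining platelet genes had no counted reads. PF4, PF4V1, GP1BB, P2RY12, TREML1 and MYL9 were at 0 in all 12 libraries, and PPBP had 1 read and VWF 10 reads in all. Reads set aside as ambiguous between genes, 1.68% to 1.86% of unique reads by library, are not in these counts. Overlapping genes were looked up for the 10 members alone. GP1BA, the von Willebrand factor-binding chain, had 58.7 ± 18.8 CPM (SD, n = 3) among WT DMSO libraries and 37.3 ± 21.1 CPM among those given GSK-LSD1. These cells thus held reads of ITGA2B, ITGB3, GP9, GP6 and GP1BA, while the main platelet chemokines were at or near 0 at this depth.

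Other platelet and megakaryocyte genes were read from 6 lists. Their counts stand beside shares of all genes tested of 22.7% higher and 22.5% lower in the WT response, and of 14.5% higher and 15.6% lower in insR against WT cells in DMSO. Of the surface receptors, 15 of 20 were tested, and 2 rose and 6 fell in WT cells (median log2 fold change -0.20), so that the 8 called lie near the 45.2% of all genes. The thrombin receptor F2RL3 fell by 1.43 on the log2 scale, from 91.7 to 34.2 CPM, and the ADP receptor P2RY1 fell by 1.14, from 39.0 to 17.8 CPM. F2R, the other thrombin receptor, rose by 1.01, from 27.8 to 55.9 CPM, and the adhesion molecule ESAM rose by 0.65. Of the 2 thrombin receptors, 1 thus rose and 1 fell. In DMSO, 5 receptors were higher and 2 lower in insR than in WT cells, and 1 was lower without WT DMSO replicate 1. The junction protein JAM3 averaged 31.7 ± 2.90 CPM (SD, n = 3) in WT DMSO and 1.78 ± 0.343 CPM in insR DMSO, a log2 fold change of -4.19 ± 0.23 (SE). The prostacyclin receptor PTGIR was higher by 1.65 and the adhesion receptor CD226 by 1.53 on the log2 scale.

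Of granule contents, 8 of 15 were tested, and 2 rose and 0 fell in WT cells (median 0.07). CD63, a granule membrane protein, rose by 0.32, from 1077 to 1344 CPM, and MMRN1, which binds factor V, rose by 0.66, a call lost under 5 alternatives, 4 of which left out a library (WT DMSO 1, WT DMSO 3, WT GSK-LSD1 2 or WT GSK-LSD1 3). Genes of granule formation and release gave 8 rises and 1 fall among 16 of 17 tested (median 0.28), and 5 rises without WT DMSO replicate 1. LYST, mutated in Chediak-Higashi syndrome, rose by 1.58, from 6.93 to 20.6 CPM. SYTL4, which binds RAB27 proteins, rose by 0.80, RAB32 of dense granule loading by 0.99 and HPS5 of lysosome-related organelle assembly by 0.62. The 1 fall was that of RAB27A, close kin of RAB27B, at -0.33 (named after its value was seen). Over the alternatives the count of falls was 0 to 2, and it was 0 without WT DMSO replicate 2, WT GSK-LSD1 replicate 1 or WT GSK-LSD1 replicate 3. In DMSO, 4 granule contents were higher and 0 lower in insR cells, a count of 2 without WT DMSO replicate 3, insR DMSO replicate 2 or insR DMSO replicate 3. SPARC was higher by 0.66 and LAMP2 by 0.30, the latter lost without the same libraries and 0.19 without the first of them. F5, coagulation factor V, had 51 reads in insR DMSO and 3 in WT DMSO libraries. The ratio per read was 14.4, with an exact 95% interval of 4.64 to 71.9 that covers counting error only. F5 averaged 0.148 and 0.0638 CPM in WT DMSO and WT GSK-LSD1, and 2.42 CPM in insR DMSO. It passed the filter's minimum of 1.67 CPM through insR libraries alone. Its call, among the 4 higher granule contents, is therefore not independent of the filter. Of granule release genes, the priming factor UNC13D was at -0.62 and LYST at 0.59 on the log2 scale, and LYST was not called without WT DMSO replicate 2, WT DMSO replicate 3 or insR DMSO replicate 3.

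Of signalling genes below the integrin and GP6, 20 of 21 were tested, and 4 rose and 4 fell in WT cells (median -0.05), near the shares of all genes. VAV1, a guanine nucleotide exchange factor, rose by 1.14 and the kinase BTK by 0.47, while the adaptor LCP2 fell by 0.68 and RAP1A, a GTPase of integrin activation, fell by 0.62 on the log2 scale. In DMSO, 2 were higher and 3 lower in insR cells. SYK, the kinase that GP6 and CLEC1B signal through, averaged 31.8 ± 5.53 CPM (SD, n = 3) in WT DMSO and 11.5 ± 1.35 CPM in insR DMSO, a value of -1.48 ± 0.15 (SE). PTGS1, the cyclooxygenase of thromboxane synthesis, was higher by 0.90. The adaptor LAT was at -1.64, at 1.86 and 0.596 CPM, and its call was lost under 8 alternatives, among them leaving out WT DMSO 1, WT DMSO 3, insR DMSO 1 or insR DMSO 2. LAT averaged 0.596 and 0.837 CPM in insR DMSO and insR GSK-LSD1, and passed the filter's minimum of 1.67 CPM through WT libraries alone. Its call, among the 3 lower, is therefore not independent of the filter. The count of 3 lower was 1 without WT DMSO replicate 1, WT DMSO replicate 3 or insR DMSO replicate 1.

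Cytoskeletal genes that changed in WT cells all fell, as TUBB1 did. Of 14 of 16 tested, 0 rose and 9 fell (median -0.29), and 1 rose under at least 1 alternative. TUBA4A, an alpha-tubulin of platelets, fell by 1.54 on the log2 scale, from 594 to 205 CPM, and was at 1199 CPM in insR DMSO, 1.01 higher than in WT DMSO. MYH10, a non-muscle myosin, fell by 1.19, from 351 to 153 CPM, and was lower in insR than in WT cells in DMSO, at -0.80. The tropomyosin TPM1 fell by 0.97 and the actin cross-linker ACTN1 by 0.68. TPM1 was also lower in insR than in WT cells in DMSO, at -1.48. In the difference in response, 6 of 14 cytoskeletal genes were called higher and 0 lower, beside 13.3% and 11.8% of all genes, and 4 to 6 were called higher over the alternatives.

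Of the 12 transcription factors, all tested, 6 rose and 2 fell in WT cells (median 0.30). GFI1B, the repressor that binds LSD1, rose by 1.55, from 87.1 to 254.7 CPM, and RUNX1 rose by 1.31, from 134 to 333 CPM. FLI1 rose by 0.68, from 96.2 to 154 CPM, and TAL1 fell by 0.54, from 161 to 111 CPM. GATA1, the other factor that fell, was at -0.63 (named after its value was seen). In the insR response 1 of these 12 was called, GFI1B, which rose from 104.7 to 153 CPM, beside 0.505% of all genes called (0.241% higher). In DMSO, insR cells had lower FLI1 (-0.55) and MEIS1 (-1.48) and higher NFE2 (0.40), the factor of late megakaryocyte genes.

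**Figure D4:**
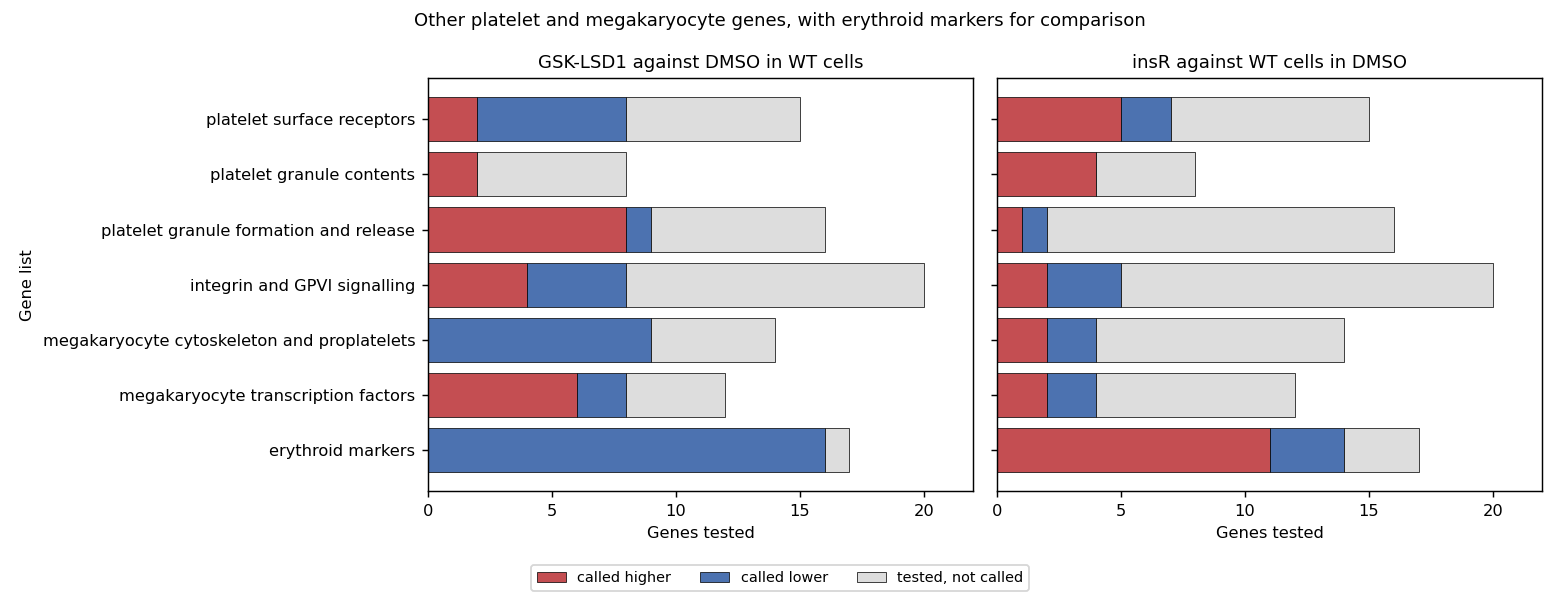
Number of genes called higher (red), called lower (blue) and tested without a call (grey) in each list, for GSK-LSD1 against DMSO in WT cells (left) and insR against WT cells in DMSO (right). In WT cells 9 cytoskeletal genes and 16 of 17 erythroid markers fell, and 8 genes of granule formation rose.

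Markers of other lineages were read in the same comparisons. In the WT response their counts stand beside shares of all genes tested of 22.7% higher and 22.5% lower. Of 18 erythroid markers, 17 were tested, and 0 rose and 16 fell in WT cells, with a summed level of 4365 to 4547 CPM in WT DMSO libraries and 1087 to 1167 CPM under GSK-LSD1. In insR libraries the sum was 7286 to 7943 CPM in DMSO and 6134 to 6576 CPM under GSK-LSD1. In the insR response 0 erythroid markers rose and 3 fell, beside 0.241% and 0.264% of all genes. Over the alternatives, 1 to 6 of them fell. In insR against WT cells in DMSO, 11 were higher and 3 lower, beside 14.5% and 15.6% of all genes. AHSP and HBB averaged 1.14 and 1.46 CPM in WT DMSO and 22.4 and 7.06 CPM in insR DMSO. They met the filter's minimum of 1.67 CPM in the 3 libraries it asks for through insR cells alone. Their values between genotypes are therefore not independent of the filter. HBG1, a fetal globin with a near-identical copy in HBG2, fell by 3.05 on the log2 scale in WT cells, from 1116 to 135 CPM, beside -3.03 for GP6. Monocyte markers summed to 178 to 195 CPM in WT DMSO and 404 to 427 CPM in WT GSK-LSD1, with 4 higher and 0 lower among 5 of 14 tested, and S100A8, CD163 and FCN1 at 0 in all libraries. Their sums in insR cells were 208 to 218 and 238 to 245 CPM. Endothelial markers, which share VWF with the granule list, gave 3 higher among 3 of 10 tested in WT cells, with sums of 30.3 to 35.7 and 62.0 to 72.8 CPM and with PECAM1 and TEK at 0. TIE1 made up most of these sums, at 30.4 CPM in WT DMSO and 54.5 CPM in WT GSK-LSD1. CDH5, at 0.207 and 0.778 CPM in these 2 groups, entered the test through insR libraries. ROBO4 averaged 1.68 and 8.84 CPM in them, and 0.493 and 0.277 CPM in insR DMSO and insR GSK-LSD1. It passed the filter only with the WT GSK-LSD1 libraries, where it was high, so its call is not independent of the filter. The insR sums of endothelial markers were 45.6 to 55.3 CPM in DMSO and 51.6 to 60.7 CPM under GSK-LSD1. Mast cell and basophil markers gave 2 higher and 1 lower among 7 of 10 tested, and stem and progenitor markers 5 higher and 1 lower among 7 of 10. The 1 lower gene was KIT in both lists, and MEIS1, among the 5 higher, is also among the transcription factors. MYCN, another of the 5, averaged 1.21 CPM in WT DMSO and 28.7 CPM in WT GSK-LSD1. It passed the filter through the WT GSK-LSD1 libraries alone, so its call is not independent of the filter. The mast cell sums ran from 1504 to 1654 CPM in WT DMSO and from 1809 to 1991 CPM in WT GSK-LSD1. The stem and progenitor sums ran from 844 to 924 and from 1359 to 1465 CPM. The part of these cell states in the members' values was not tested.

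Over the 12 libraries, the genes most like a member were sought among 8961 protein-coding genes by Pearson's r of log2 CPM, for members reaching a group mean of 10 CPM. The libraries fall into 4 groups, so r describes mainly group means. ITGA2B was nearest to CHD2 (r = 0.991), TMEM164 (0.990) and PPM1F (0.978), which were likewise highest in WT GSK-LSD1. ITGB3 was nearest to RAD1 (0.978), PPID (0.975) and BCCIP (0.974), and GP6 to AGPAT3 (0.984), NDUFAF4 (0.979) and LRRC59 (0.979). RAB27B was nearest to SMAD6 (0.991), C11orf54 (0.990) and MBTD1 (0.987), whose levels were lowest in insR cells and highest in WT GSK-LSD1. SMAD6 was at 21.8 and 44.0 CPM in WT DMSO and WT GSK-LSD1 and at 7.25 and 7.62 CPM in insR DMSO and insR GSK-LSD1. Among the members themselves, ITGA2B and ITGB3 had r = -0.900, ITGB3 and TUBB1 0.951, GP9 and TUBB1 0.938 and RAB27B and CLEC1B -0.944.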

How the data were processed

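Poly(A) RNA of 12 libraries was primed from the 3′ end (QuantSeq FWD, per the labels' protocols), which places reads at the ends of transcripts. The submitters' processing notes list STAR 2.6.0c, HTSeq 0.9.1, bcl2fastq 2.2, DESeq2 and hg19. The annotation release and strand setting were not given in the sources used here. Per-gene counts were deposited as whole reads with no scaling. The authors' deposited normalized signal equals these counts over a size factor for each library, and whole reads were recovered for 100% of values within 0.01 of a whole number, with 0 genes differing from the counts. Reads outside genes, 13.7% to 19.5% of unique reads, were kept out of library sizes. Depth was 4837096 to 10141155 reads in genes per library. No batch is given in the labels.

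The test was edgeR 4.0.16 (R 4.3.3), robust quasi-likelihood, TMM, filterByExpr, 1 fit over 12 libraries with 1 coefficient per group. P-values were adjusted by Benjamini-Hochberg over 12864 genes and called below 0.05. SE was the log2 fold change over the root of the F value. The members and the 6 pathway and 5 marker lists were chosen with earlier results of these data known. Named genes were the 10 members, up to 4 genes per pathway list called in the WT response and up to 3 called in insR against WT cells in DMSO by lowest p, the 3 genes most like each member that reached 10 CPM (log2 CPM, prior count 2), and the lowest-p erythroid gene. The marker genes AHSP, HBB, CDH5, ROBO4, TIE1, KIT and MYCN, outside this rule, were named after their values were seen. The 22 alternatives included DESeq2 1.42.0, limma 3.58.1 and leaving out each library, and the scripts were tested on simulated data. Overlapping genes were taken by name from GENCODE v29. Promoters, from RefSeq on GRCh38.p14, matched 9 of 10 members.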

Additional observations from a re-analysis of the deposited data

Results flagged for a closer look

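The response to GSK-LSD1 differed between insR and WT cells for 6 of the 10 genes, by the test of the difference itself in edgeR over all genes. The log2 response in insR cells minus that in WT cells was -0.729 for ITGA2B, 1.264 for ITGB3, 2.816 for GP6, 1.398 for GP9, 2.898 for TUBB1 and -2.267 for RAB27B.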

How the results depend on the processing

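The count of members called was 6 to 8 over the 22 alternatives in the WT response and 0 in the insR response. It was 6 to 7 over 21 alternatives in the difference in response. It was 2 to 4 in insR against WT cells in DMSO and 8 to 9 under GSK-LSD1. THBS1, SELP and CLEC1B were tested under 21 alternatives in the WT response. The same held for GP5 in the insR response and for THBS1 in insR against WT cells under GSK-LSD1. Same-numbered libraries did not pair by number: their deviations correlated at -0.169 to 0.198 over 18 pairs, 3 of them over 0.1. Pairs of different numbers ran from -0.313 to 0.289, and a batch shared across numbers was not tested. With the replicate number as a block, the members called were 8, 0, 6, 3 and 9 in those comparisons. The signs that turned belonged to values not called. Leaving out 1 library, SELP ran from -0.29 to 0.57 and GP5 from -0.51 to 0.0587 in the WT response. In the insR response the ranges were -0.18 to 0.12 for ITGB3, -0.84 to 0.30 for GP5, -0.46 to 0.0454 for RAB27B and -0.11 to 0.31 for CLEC1B. In the difference they were -0.39 to 0.47 for SELP, -0.56 to 0.58 for GP5 (and -0.10 with limma-voom) and -0.33 to 0.24 for THBS1. In insR against WT cells in DMSO they were -0.098 to 0.0005 for ITGA2B, -0.18 to 0.0054 for ITGB3 and -0.11 to 0.034 for GP9. The cause was not tested. Over all genes, the insR response gave 65 calls, 118 with no filter beyond 1 count and 39 with limma-trend; without insR DMSO replicate 1 or 2 or insR GSK-LSD1 replicate 1, 2 or 3 it gave 29, 34, 28, 28 and 40. Depth gave THBS1, SELP and CLEC1B at most 47, 39 and 27 reads in a library.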
